A study of Mus musculus with 4 samples.

Results

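MHC class II antigen presentation was followed through the mouse liver by means of 9 genes, picked by symbol from the 55488 genes that the files list: the chain genes H2-Aa, H2-Ab1 and H2-Eb1, the invariant chain gene Cd74, the peptide editor genes H2-DMa and H2-DMb1, the modulator genes H2-Oa and H2-Ob, and the transactivator gene Ciita. All 9 were found in each of 4 single-cell RNA sequencing libraries, 1 mouse per genotype. WT was a genetically unmodified mouse. In YAPKO, TAZKO and DKO (double knock-out) mice, floxed Yap, floxed Taz or both were deleted by Alb-Cre, a recombinase driven by the albumin promoter that acts in hepatocytes (HCs) and biliary epithelial cells (BECs), so deletion is not directed at the immune cells that carry most class II transcript. All mice were untreated. Non-parenchymal cells (NPCs) and HCs were prepared separately from each liver and then mixed at a fixed ratio, so cell proportions here are not those of the tissue. Age and strain of these 4 mice are not given in the sources used here.

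MHC class II molecules are heterodimers of an alpha and a beta chain that carry peptides of engulfed or membrane proteins to the surface, where CD4+ T cells read them. The invariant chain guards the groove until cathepsins degrade it, after which H2-DM exchanges the last fragment for peptide and H2-DO restrains H2-DM. Dendritic cells, B cells and macrophages express the genes constitutively or on activation, and Ciita is the master switch, docking on factors (RFX, CREB and NF-Y) that sit on a conserved promoter module. In liver, Kupffer cells (KCs, the resident macrophages) and dendritic cells are the main presenting cells.

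With 1 library per genotype no replicate error can be estimated and no test was made. Every ratio to WT below compares libraries, not genotypes, and the 3 knock-out libraries share the same WT library. Levels are unique molecular identifiers (UMIs) per 1000000 UMIs of the same cells (CPM), ratios are log2 of knock-out over WT CPM, and square brackets hold exact 95% intervals (Poisson for a level, conditional binomial for a ratio, Clopper-Pearson for a share) that cover counting error only. The chemistry reads the 3′ end, so CPM counts transcripts without scaling for length.

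From 44974 barcodes, 30362 were kept, each with between 500 and 6000 genes and a mitochondrial share of 10% or less. WT kept 7155 cells, YAPKO 6275, TAZKO 8638 and DKO 8294. Median depth was 4618 UMIs per cell in WT, 7337 in YAPKO, 3555.5 in TAZKO and 5952.5 in DKO, and pairs of libraries shared 9 to 26 barcodes. Clustering without any H2- gene or member gave 14 types named from marker lists that hold no class II gene, so that each name means cells like that type, and 2 clusters of 361 cells stayed unnamed. Yap1 in HCs stood at 21.4 CPM in WT, 4.75 in YAPKO, 46.9 in TAZKO and 4.56 in DKO, and Wwtr1 (TAZ) at 5.11, 13.2, 2.59 and 2.47 CPM. In TAZKO BECs Wwtr1 stood at 63.4 CPM [38.2–99.0] against 68.7 in WT. A 3′ tag can lie outside the deleted exon, so these levels check the labels only in part.

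On GRCm38 (GENCODE M21), the 7 H2 genes lie within 224 kb on chromosome 17, from 34092340 to 34316674, in the order H2-Oa (34092340 to 34095234), H2-DMa (34119541 to 34139101), H2-DMb1 (34153072 to 34160230), H2-Ob (34238903 to 34254414), H2-Ab1 (34257689 to 34269419), H2-Aa (34282744 to 34287823) and H2-Eb1 (34305867 to 34316674). H2-Aa is on the minus strand and the other 6 on the plus strand. Ciita is on chromosome 16 (10480059 to 10528418), on the plus strand. H2-DMa shares its strand with the overlapping CR974462.3, and H2-DMb1 has a near-identical neighbour, H2-DMb2, so reads may have been divided between them.

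What the H2 promoters share is shown by the stretch around a letter pattern found in 5 of the 7 member windows of RefSeq (GRCm38.p6, 250 bases before to 50 after a start). The pattern is GNAAC followed 28 to 31 bases on, start to start, by TGATTGG, searched on both strands. The first word belongs to the X box that RFX binds and the second holds the reverse complement of CCAAT, the Y box that NF-Y binds. The capitals mark both words, the first base of each being 81 and 50 bases before the start in H2-Aa, 91 and 61 in H2-Eb1, 94 and 63 in H2-DMb1, 76 and 45 in H2-Oa, and 87 and 59 in H2-Ob. In that order the stretches are chr17:34287852-34287919 (minus strand), then, all on the plus strand, chr17:34305761-34305827, chr17:34153082-34153149, chr17:34092288-34092355 and chr17:34238803-34238867.
H2-Aa: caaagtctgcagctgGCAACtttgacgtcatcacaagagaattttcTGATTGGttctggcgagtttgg
H2-Eb1: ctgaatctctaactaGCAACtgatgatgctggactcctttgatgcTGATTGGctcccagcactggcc
H2-DMb1: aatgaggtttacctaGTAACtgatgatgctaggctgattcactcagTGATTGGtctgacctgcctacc
H2-Oa: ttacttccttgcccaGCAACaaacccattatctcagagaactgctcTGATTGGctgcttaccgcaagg
H2-Ob: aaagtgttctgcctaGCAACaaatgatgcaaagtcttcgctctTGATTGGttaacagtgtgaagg
Of all 32851 promoter windows, 36 (0.110%) held the pair, against 2568 (7.82%) that held TGATTGG and 84.8% that held GNAAC, with or without the other word. The letters and the spacing were chosen with these promoters in view, so the share describes how rare the pair is and tests nothing. Neither window of H2-DMa holds the pair, which says only that these letters are not there. Of the beta-chain relatives, H2-Eb2 holds the pair, while H2-DMb2 holds TGATTGG but not the pair. H2-Ab1, Cd74 and Ciita have no window in the table.

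Across cell types the class II sum (UMIs of all 9 members) fell into a broad order in the plot of class II sum by cell type. With mature dendritic cells set aside, conventional dendritic cells came first. cDC2 stood at 54614 CPM in WT, 63852 in YAPKO, 36110 in TAZKO and 60066 in DKO, and cDC1 at 58202, 53831, 36652 and 48793 CPM. cDC1 and cDC2 exchange places between libraries, so their order is not fixed. Mature dendritic cells ranged from 29134 CPM (TAZKO) to 79055 CPM (WT, the highest of all types there), but over only 4 to 19 cells per library.

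**Figure D1:**
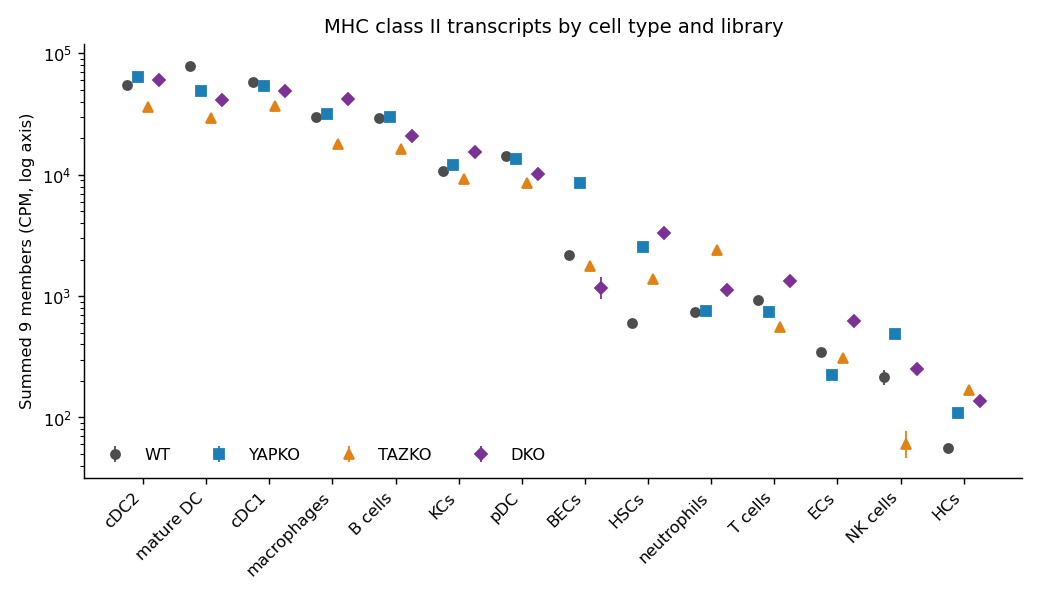
Sum of the 9 class II genes in CPM (log axis) for each cell type, 1 point per library, with exact 95% Poisson intervals. The lowest library of dendritic cells, macrophages and B cells is TAZKO B cells at 16272 CPM, pDCs and KCs lie between 8479 and 15342 CPM, and HCs reach at most 170 CPM.

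Macrophages other than KCs followed, at 29854 CPM in WT, 31417 in YAPKO, 17940 in TAZKO and 41928 in DKO. B cells were close to them in WT (29145 CPM) and YAPKO (29889), and stood lower in DKO (20972) and TAZKO (16272). Plasmacytoid dendritic cells (pDCs) had 14322, 13563, 8479 and 10063 CPM, and KCs 10641, 12087, 9311 and 15342 CPM, so that the order of pDCs and KCs also turned between libraries. Below them, BECs, hepatic stellate cells (HSCs), neutrophils, T cells, endothelial cells (ECs), NK cells and HCs ranged from 56.1 CPM (HCs, WT) to 8556 CPM (BECs, YAPKO).

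The transactivator Ciita was a low-abundance transcript everywhere. In cDC1 it stood at 312 CPM in WT, 240.5 in YAPKO, 405 in TAZKO and 295 in DKO, and in cDC2 at 222, 262, 379 and 307 CPM. B cells held 101, 150.5, 181 and 135 CPM, macrophages 96.8, 103, 151 and 161 CPM, and pDCs 38.7, 42.3, 58.4 and 36.2 CPM. KCs had 29.7, 35.7, 52.5 and 63.6 CPM. Of these 6 types cDCs were highest in each library, while B cells and macrophages, and pDCs and KCs, changed places between libraries. Transcripts of the RFX subunits that Ciita needs were found in non-presenting cells too. Rfxap stood at 67.3, 55.8, 43.8 and 52.0 CPM in cDC1 and 42.2, 35.3, 37.5 and 45.9 CPM in T cells, but at only 9.18, 12.1, 17.1 and 19.9 CPM in HCs. Rfx5 stood at 13.5, 16.9, 21.2 and 24.8 CPM in B cells, 11.1, 12.2, 13.7 and 10.6 CPM in ECs and 2.74, 4.64, 8.04 and 5.66 CPM in T cells.

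The chain genes H2-Aa, H2-Ab1 and H2-Eb1 had near-equal counts in WT cDC2, with 9753, 9708 and 9687 CPM. H2-Eb1 per H2-Aa was 0.993 there, 0.910 in YAPKO, 0.822 in TAZKO and 0.895 in DKO. In pDCs H2-Eb1 lagged behind H2-Aa, with 0.546 transcripts per H2-Aa transcript in WT, 0.574 in YAPKO, 0.484 in TAZKO and 0.509 in DKO. H2-Ab1 per H2-Aa was 0.877, 0.820, 0.795 and 0.795 there. In mature dendritic cells it was H2-Ab1 that lagged, at 0.572, 0.605, 0.581 and 0.613 per H2-Aa, while H2-Eb1 was 17593 CPM against 17977 CPM for H2-Aa in WT.

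Cd74, whose product chaperones the chains, lies apart from the H2 genes on the plus strand of chromosome 18 (60803848 to 60812652). It was the most abundant member, at 23236, 26913, 14670 and 24938 CPM in cDC2 and 16819, 16663, 8383 and 11069 CPM in B cells. Per chain transcript (the 3 chain genes summed), B cells carried the most Cd74, with 1.52 in WT, 1.42 in YAPKO, 1.25 in TAZKO and 1.28 in DKO. pDCs followed with 1.10, 1.12, 1.07 and 1.01. KCs had 0.951, 0.928, 0.975 and 0.828 and cDC2 0.797, 0.793, 0.757 and 0.766. B cells lay above the other 5 presenting types in each library.

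**Figure D2:**
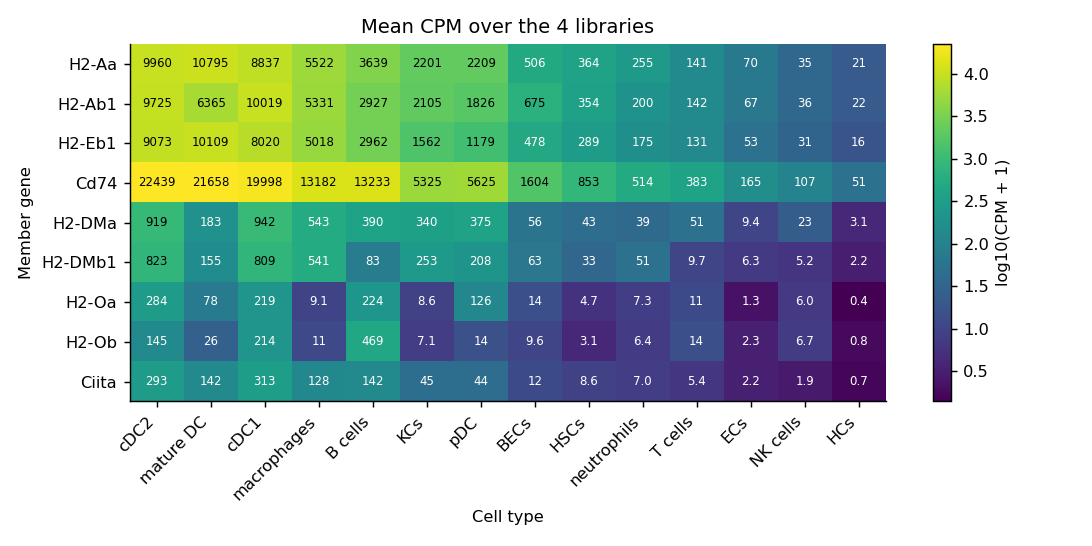
Heat map of the 9 members (down the side) by cell type, each cell printing the mean CPM over the 4 libraries and coloured by log10(CPM + 1). H2-Oa and H2-Ob separate the types more than the chain genes do: single KC and macrophage libraries hold between 4.197 and 16.8 CPM of either, against 145 to 490 CPM in B cells.

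H2-DMa and H2-DMb1, the subunits of the peptide editor, did not keep the same balance in every type. H2-DMa stood at 414.5, 458.5, 303 and 386 CPM in B cells and H2-DMb1 at 78.3, 87.4, 85.7 and 79.6 CPM, a ratio of 5.29, 5.24, 3.53 and 4.84. In B cells the paralogue H2-DMb2 was the more abundant beta chain, at 492, 628, 340 and 450 CPM. KCs were the reverse, with 236, 305, 187 and 284 CPM of H2-DMb1 and 8.50, 12.9, 9.60 and 9.17 CPM of H2-DMb2. Among the presenting types, H2-DMa and H2-DMb1 transcripts per 100 chain transcripts were highest in KCs (11.01, 11.3, 11.04 and 8.17) and pDCs (10.2, 11.8, 12.0 and 11.1). They were intermediate in cDC2 (5.50, 6.64, 6.80 and 5.50) and B cells (4.46, 4.65, 5.79 and 5.39), and lowest in mature dendritic cells (0.419, 1.58, 3.25 and 1.23). H2-DMb2 was left out, so the place of B cells does not hold for all editor transcripts. The low values of mature dendritic cells rest on 2, 23, 9 and 26 UMIs of H2-DMa.

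H2-Oa and H2-Ob, which encode the modulator of H2-DM, marked B cells and dendritic cells. In B cells H2-Oa stood at 245, 306, 145 and 199.5 CPM and H2-Ob at 445, 490, 467 and 472 CPM, or 1.40, 1.46, 1.58 and 1.44 modulator transcripts per editor transcript. The same ratio was 0.252, 0.218, 0.275 and 0.257 in cDC2 and 0.0190, 0.0247, 0.0371 and 0.0268 in KCs. pDCs held H2-Oa (152, 168, 91.4 and 93.9 CPM) with little H2-Ob (13.7, 18.2, 13.3 and 12.7 CPM). H2-Oa per H2-Ob was 11.2, 9.23, 6.86 and 7.42 in pDCs and 0.551, 0.624, 0.312 and 0.422 in B cells, so the subunits were out of balance in opposite directions in these types in each library. H2-DMb2 was not counted with the editor, so the modulator ratio of B cells is given relative to H2-DMa and H2-DMb1 only.

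**Figure D3:**
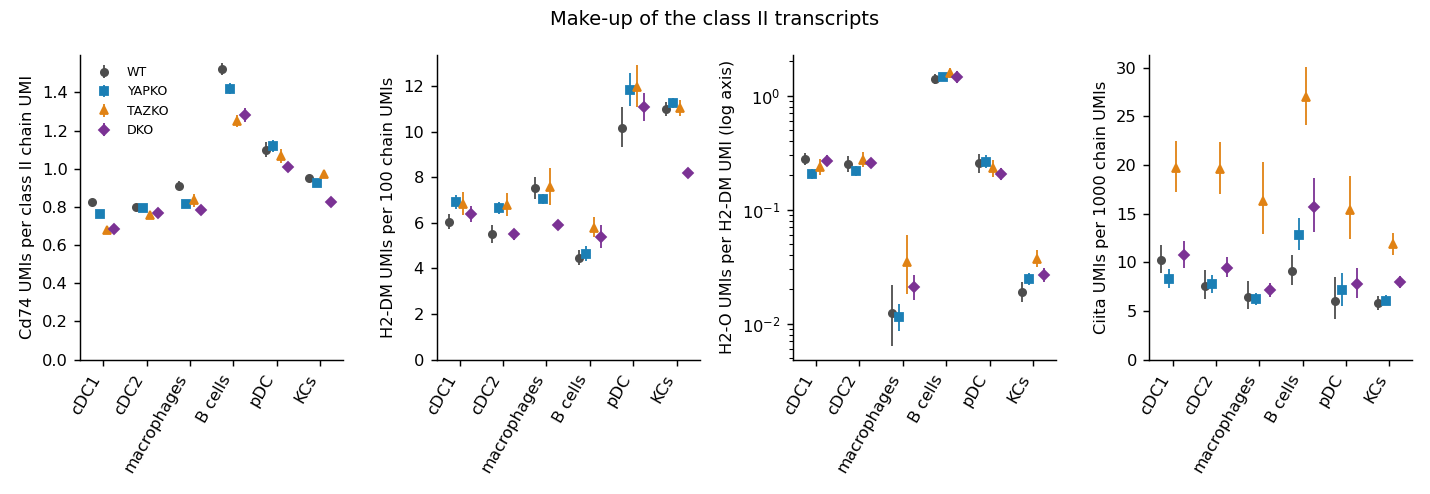
Make-up of the class II set in the presenting cell types by library: Cd74 per chain transcript, H2-DM per 100 chain transcripts, H2-DO per H2-DM transcript (log axis) and Ciita per 1000 chain transcripts, with exact 95% intervals of counting error. B cells have the highest Cd74 and H2-DO ratios in each library, KCs and macrophages the lowest H2-DO ratios, and TAZKO the highest Ciita ratio in each of the 6 types.

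Outside the 9 members, the relatives and the processing genes were read from lists of pathway genes. H2-Ea was nearly undetected, reaching 5.69 CPM in WT pDCs and at most 1.03 CPM in other types. H2-Eb2 was highest in mature dendritic cells, at 545, 408, 148 and 439 CPM, where Ifi30 (GILT, the lysosomal thiol reductase) reached 5095, 3889, 1426 and 2775 CPM. Marchf1, the ubiquitin ligase that drives class II turnover, gave no UMI in mature dendritic cells of any library, which at a floor of 3 UMIs allows up to 96.1, 29.2, 89.1 and 20.6 CPM, while Cd83, which opposes it, gave 577, 797, 1099 and 644 CPM there. In B cells Marchf1 stood at 313, 297, 180 and 255 CPM. Ctss, the cathepsin that trims the invariant chain in most presenting cells, was highest in macrophages and KCs, at 2699, 2971, 2418 and 2256 CPM in KCs. In pDCs Ctsl stood at 1890, 1805, 895 and 1476 CPM and Ctsb at 1675, 1654, 1412 and 1430 CPM, so that Ctsb was the higher of them in TAZKO.

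Over 46 groups of at least 50 cells in 13 types, the pattern of the class II sum was compared with 16232 genes by Pearson correlation of log CPM. The most similar genes were Erp29 (r = 0.944), Ifi30 (0.937), Pkib (0.937), Rassf4 (0.935), Ly86 (0.934), Fgd2 (0.917), Cd180 (0.910), Marchf1 (0.900), Ctss (0.898) and Wdfy4 (0.898). Among the members, r was 0.998 for Cd74, 0.960 for Ciita, 0.794 for H2-Oa and 0.732 for H2-Ob, each member being a part of the sum. The groups share libraries and depth, and Wdfy4 is among the cDC1 markers used to name them, so the values are a description.

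In KCs the class II sum was higher in the DKO library than in WT, with a log2 ratio of 0.53 [0.52, 0.54], against 0.18 [0.17, 0.19] in YAPKO and -0.19 [-0.21, -0.18] in TAZKO. H2-Aa stood at 1873 CPM in WT, 2099 in YAPKO, 1884 in TAZKO and 2947 in DKO, and H2-Eb1 at 1326, 1606, 1054 and 2261 CPM. The DKO library was thus the highest for both, and TAZKO was at the WT level for H2-Aa and below it for H2-Eb1. In DKO the ratio was 0.77 for H2-Eb1, 0.65 for H2-Aa and 0.44 for Cd74. Ciita had a larger ratio than the chain genes, at 1.10 [0.90, 1.30] in DKO and 0.82 [0.60, 1.04] in TAZKO. The YAPKO ratio changed sign when doublet-rich clusters were left out (-0.06) and when high doublet scores were left out (-0.07). It also did so when cells were chosen one by one by markers (-0.07). Macrophage markers in KCs summed to 3568 CPM in WT, 5758 in YAPKO, 3052 in TAZKO and 3895 in DKO. EC markers there summed to 2916, 3218, 3563 and 3958 CPM, and 15.3%, 22.8%, 10.7% and 21.2% of KCs had top doublet scores. The part of these values in the KC ratios was not tested.

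A change of at least 2-fold was reached by 6.99% of 13647 genes counted in KCs in YAPKO, 12.5% of 13118 in TAZKO and 10.7% of 13588 in DKO, a gene entering the count with 20 or more UMIs over both libraries. Of the 9 members 0, 1 (H2-Ob) and 1 (Ciita) reached it. The median over the members was 0.27, -0.13 and 0.65, beside -0.02, 0.24 and 0.07 over all genes counted. The count of members past 2-fold is near the background and is no result about them.

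**Figure D4:**
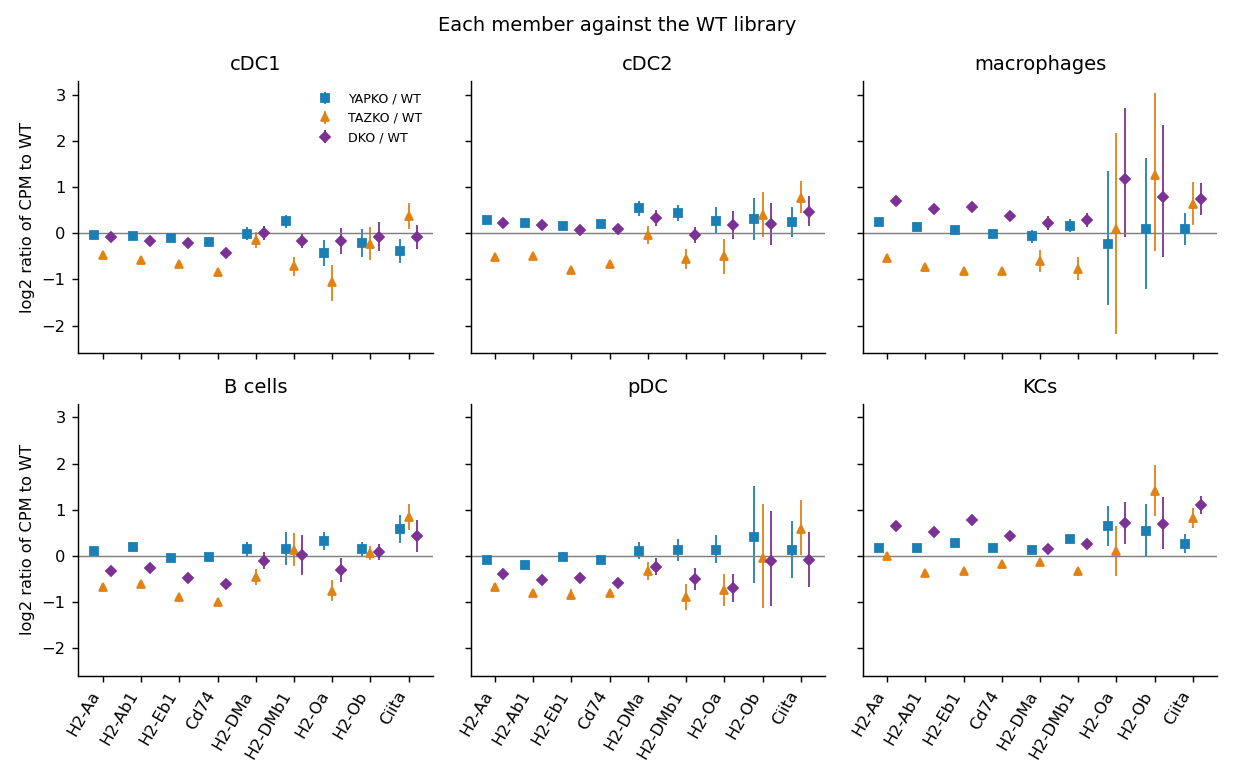
Log2 ratio to WT of each member in KCs, macrophages, cDC1, cDC2, pDCs and B cells, 1 panel per type and 1 symbol per knock-out library, with exact 95% intervals of counting error. In TAZKO the chain genes and Cd74 lie below 0 in each type except for H2-Aa in KCs (0.01), while Ciita lies above 0 in all 6.

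KCs of the 4 libraries were divided differently among their clusters. The cluster led by Mmp12, Cd207 and Trem2 held 9.15% of KCs in WT, 14.7% in YAPKO, 17.2% in TAZKO and 20.9% in DKO. A further cluster, of 8615 CPM class II in WT, held 13%, 6.27%, 30.8% and 7.82%. Its cells were shallow, with a median of 3950 UMIs against 11202 in the former cluster. The part of depth in these shares was not tested. KC markers in the whole class summed to 18931, 17631, 19920 and 13077 CPM. Dissolving the KC class into its clusters gave the same sign for DKO throughout, with different sizes. The cluster led by Timd4 and Cd163, markers of embryonic KCs, had class II sums of 11023 CPM in WT and 11407 CPM in DKO, a ratio of 0.05 [0.03, 0.07]. The cluster led by Mmp12, Cd207 and Trem2 had 15202 CPM in WT and 21760 CPM in DKO, a ratio of 0.52 [0.49, 0.54]. A cluster that also carried EC transcripts and haemoglobin had 7724 and 15282 CPM, a ratio of 0.98 [0.96, 1.01], and 54.4% of its cells were among the top 8% of doublet scores. The part of doublets in that ratio was not tested, and without the doublet-rich clusters the DKO ratio in KCs was 0.37. Across single KCs, class II made up a median of 7768 CPM in WT, 7692 in YAPKO, 6960 in TAZKO and 11400 in DKO. The share of KCs with more than 1% of their UMIs from class II genes was 34.5%, 39.3%, 29.4% and 54.0%.

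**Figure D5:**
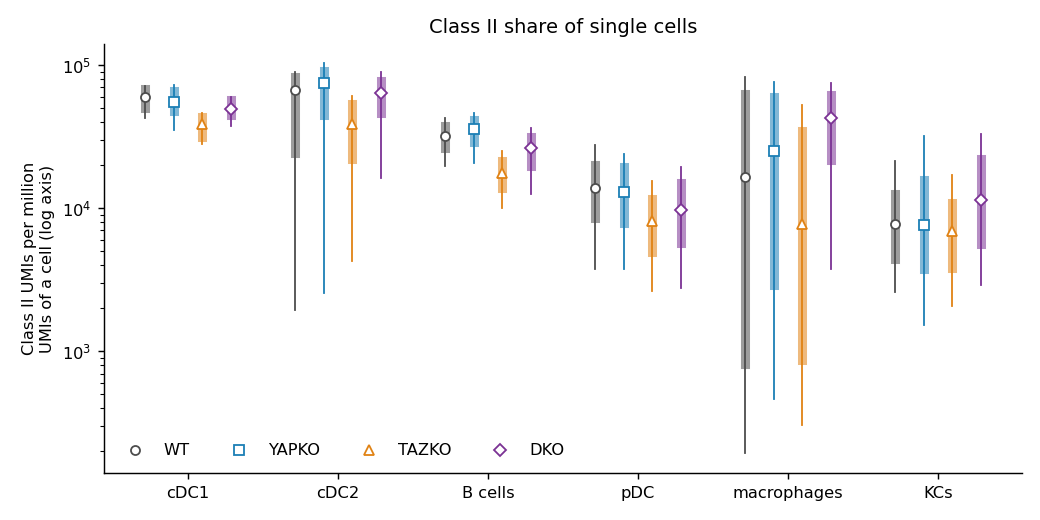
Class II level of single cells in CPM, by type and library: on a log axis, symbols mark the median, thick bars the span between quartiles and thin lines the 10th to the 90th percentile. Of the 6 types shown, macrophages have the widest spread on this axis, from 194 to 82104 CPM in WT between those percentiles.

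In KCs and macrophages, cells with a Ciita UMI held more of the other members. After leaving out cells of fewer than 3000 UMIs (42, 39, 223 and 46 KCs) and thinning the rest to 3000, 6.18% of KCs in WT, 8.59% in YAPKO, 11.9% in TAZKO and 13.8% in DKO had a Ciita UMI. KCs with one carried a median of 46, 71, 40 and 63 UMIs of the other members, and KCs without one 22, 22, 20 and 31. In macrophages the medians were 198, 175, 107 and 154 with Ciita and 32, 44, 9 and 120 without. The macrophage class pools clusters of different class II level, and their part in this gap was not tested. The direction was the same in each library for KCs and macrophages, and also for cDC2 and for the B cells deep enough to enter, 191, 188, 237 and 63 per library, with 234, 246, 321 and 264 left out. Some of those gaps were small, with 48.5 against 45 UMIs in TAZKO B cells and 196 against 185 in DKO cDC2. In cDC1 the medians were 187, 184, 105 and 153 with Ciita and 153, 157, 130 and 147 without, so that TAZKO cDC1 went the other way.

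From the pathway lists, few genes passed 2-fold in KCs. In DKO, Cd83 stood at 58.1 CPM against 25.4 CPM in WT (1.19), Socs1, a feedback inhibitor of interferon signalling, at 8.67 against 3.99 CPM (1.12), and Nlrc5, the class I counterpart of Ciita, at 8.25 against 17.2 CPM (-1.06). Each was the only member of its list past 2-fold: 1 of 3 turnover genes, 1 of 7 genes of the interferon-gamma route counted and 1 of 9 class I genes. With 10.7% of all genes past 2-fold in that comparison, these counts are no result about the lists. None of the 7 invariant chain and processing genes passed 2-fold in KCs of any library. Dividing-cell genes were lower in each knock-out library, summing to 882 CPM in WT, 631 in YAPKO, 549 in TAZKO and 486 in DKO. In DKO 4 of 6 were at least 2-fold lower, with Mki67 at 46.5 CPM against 99.8 CPM. In TAZKO 1 of 6 (Birc5) was, and in YAPKO 0 of 6. In TAZKO the costimulator Cd40 stood at 24.8 against 11.7 CPM (1.09).

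Macrophages other than KCs gave log2 ratios of 0.07 [0.05, 0.09] in YAPKO, -0.73 [-0.77, -0.70] in TAZKO and 0.49 [0.47, 0.51] in DKO. H2-Aa stood at 4912, 5809, 3410 and 7958 CPM in WT, YAPKO, TAZKO and DKO, and Cd74 at 13647, 13552, 7755 and 17772 CPM. TAZKO was the lowest and DKO the highest library for both. Macrophage markers did not stay level over the class either, summing to 27472, 25552, 18460 and 11656 CPM, and the part of this change of make-up in the ratios was not tested. Only 84 cells carry the TAZKO value and 102 the WT value, against 371 in YAPKO and 363 in DKO. With the cell limits read as UMIs, the DKO ratio was -0.09. Of 9575, 6778 and 8994 genes counted, 11.5%, 12.9% and 13% passed 2-fold in YAPKO, TAZKO and DKO, and of the members 0 of 9, 0 of 7 and 1 of 9, namely H2-Oa with 6 UMIs in WT and 38 in DKO.

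The macrophage class holds distinct populations. The cluster led by Chil3, Vcan and F13a1, genes of monocytes, had class II sums of 25958, 22945, 13096 and 36554 CPM. The cluster led by Gpnmb, Ms4a7 and Trem2 had 46925, 37878, 31093 and 48713 CPM. TAZKO was the lowest library in both, and the DKO ratio was 0.49 [0.46, 0.52] in the former and 0.05 [0.03, 0.08] in the latter. In YAPKO the ratio was below 0 in both, -0.18 and -0.31, while the pooled value was above it. The latter cluster, the one with more class II, held 32.4% of macrophages in WT, 50.4% in YAPKO, 33.3% in TAZKO and 45.7% in DKO. A small cluster led by Serpinb2, Alox15 and Saa3, with 1235 CPM class II in WT, held 12.7%, 1.08%, 5.95% and 1.10%. The DKO difference in the monocyte-like cluster was joined by Ciita, at 189 CPM against 105 CPM, a ratio of 0.85 [0.39, 1.34].

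In the same macrophages several lysosomal proteases had larger ratios than the class II sum in YAPKO. Ctsd stood at 480 CPM in WT and 2949 CPM in YAPKO (2.62 [2.48, 2.76]), Ctsl at 95.6 and 444 CPM (2.22), Ctsb at 1411 and 4297 CPM (1.61) and Lgmn, a protease that begins invariant chain breakdown, at 419 and 947 CPM (1.18). These were 4 of 7 processing genes past 2-fold, all higher, beside 11.5% of all genes counted in that comparison. Ctsd was also past 2-fold in TAZKO (968 CPM, 1.01) and DKO (1057 CPM, 1.14), the only processing gene to be so there. With 12.9% and 13% of all genes past 2-fold in TAZKO and DKO, those counts of 1 of 7 are no result about the list. Markers of other types differed in the same macrophages. BEC markers summed to 21.0, 718, 37.4 and 96.5 CPM, neutrophil markers to 582, 1107, 72.9 and 155 CPM and HC markers to 4018, 858, 3878 and 1475 CPM. The cluster led by Gpnmb, Ms4a7 and Trem2 held 50.4% of these macrophages in YAPKO against 32.4% in WT. The part of these markers and of that cluster in the protease ratios was not tested. Costimulatory and coinhibitory genes past 2-fold went both ways. Cd86 was lower, at 105 CPM in WT against 46.4 CPM in YAPKO and 39.2 CPM in TAZKO, as was Icosl in YAPKO (9.80 against 21.0 CPM). Cd80 (1.25) and Cd274 (1.06) were higher in DKO, on only 6 and 7 UMIs in WT against 40 and 41. In TAZKO Cd83 was lower (26.2 against 63.0 CPM), and Nfya (48.6 against 23.3 CPM), Nfyb (35.5 against 17.5 CPM) and Marchf8 (29.9 against 10.5 CPM) were higher, each of these higher genes having 26 UMIs or fewer per library. In DKO, H2-DMb2 stood at 30.3 CPM against 5.83 CPM in WT (2.38 [1.09, 4.05]), with 5 UMIs in WT.

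Conventional and mature dendritic cells pooled gave ratios of 0.02 in YAPKO, -0.66 in TAZKO and -0.08 in DKO. In cDC2, H2-Aa stood at 9753, 11843, 6833 and 11410 CPM and in cDC1 at 9694, 9454, 6985 and 9213 CPM. TAZKO was the lowest library in both types. The sum in cDC1 had ratios of -0.11 [-0.13, -0.09], -0.67 [-0.69, -0.64] and -0.25 [-0.27, -0.23], and in cDC2 0.23 [0.20, 0.25], -0.60 [-0.62, -0.57] and 0.14 [0.12, 0.16], so the small YAPKO and DKO ratios had opposite signs in the 2 types. KC markers in cDC1 summed to 57.3, 877, 839 and 145 CPM, and 2.33%, 10.8%, 16.7% and 6.15% of cDC1 had top doublet scores. In cDC2 the dividing-cell genes summed to 1564, 575, 752 and 359 CPM. The cDC2 markers there summed to 1566, 2931, 1943 and 2150 CPM, and macrophage markers to 2617, 2688, 1602 and 1669 CPM. The part of these values in the cDC1 and cDC2 ratios was not tested. In pooled dendritic cells 7.42%, 13.7% and 9.42% of genes passed 2-fold in YAPKO, TAZKO and DKO, and none of the 9 members did. In cDC1 taken alone, H2-Oa was past 2-fold in TAZKO, at 135 against 282 CPM (-1.06 [-1.46, -0.68]). It was 1 of 9 members, beside 557 genes past 2-fold higher and 254 lower of 6129 counted there. That count is no result about the members. For dendritic cells pooled, the relative H2-Eb2 stood in TAZKO at 10.1 CPM against 35.0 CPM in WT (-1.79). Nfya, a subunit of NF-Y, stood at 49.7 against 20.02 CPM (1.31) and Cd86 at 69.9 against 140 CPM (-1.003) in the same pool. In the DKO pool the costimulatory ligand Icosl (65.3 against 30.9 CPM, 1.08) and the coinhibitory ligand Pdcd1lg2 (17 against 3 UMIs) were higher.

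pDCs had ratios of -0.08 [-0.11, -0.05] in YAPKO, -0.76 [-0.79, -0.72] in TAZKO and -0.51 [-0.54, -0.48] in DKO. H2-Eb1 stood at 1446, 1430, 808 and 1033 CPM and Cd74 at 7051, 6670, 4057 and 4723 CPM. WT and YAPKO lay together above DKO and TAZKO. Among pDCs 29.4%, 22.5%, 12.8% and 10.8% had top doublet scores, and EC markers summed to 5413, 5651, 3487 and 5202 CPM. The part of either in the ratios was not tested.

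B cells (425 in WT, 434 in YAPKO, 558 in TAZKO and 327 in DKO), had ratios of 0.04 [0.02, 0.06], -0.84 [-0.86, -0.82] and -0.47 [-0.50, -0.45]. H2-Aa stood at 4154, 4482, 2595 and 3326 CPM, H2-Ab1 at 3213, 3698, 2120 and 2677 CPM and H2-Eb1 at 3675, 3554, 1993 and 2628 CPM. TAZKO was lowest and DKO next for each chain gene. Cd74 had the largest difference, -1.005 [-1.03, -0.98] in TAZKO. H2-Ob, by contrast, differed little, from 445 to 490 CPM over the 4 libraries. The DKO ratio in B cells ranged from -0.55 to -0.06 over the alternatives tried, -0.06 being with high doublet scores left out, and the YAPKO ratio was -0.02 when scaled to the other UMIs.

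In B cells 6.22% of 8439 genes passed 2-fold in YAPKO, 16.5% of 9150 in TAZKO and 9.2% of 8029 in DKO. Of the 9 members 0, 1 (Cd74) and 0 passed it. The median over the members was 0.15, -0.60 and -0.26, beside 0.03, 0.19 and 0.11 over all genes counted. Ifi30 went the other way in TAZKO, with 881 CPM against 431 CPM in WT (1.03 [0.90, 1.17]), as did Cd274 (25.5 against 10.8 CPM) and Cd80 (24 against 9 UMIs). In YAPKO Ctsl stood at 16.2 against 55.4 CPM (-1.77). Of the dividing-cell genes counted in B cells, 3 of 5 were at least 2-fold higher in YAPKO, 0 of 2 in TAZKO and 2 of 5 in DKO. These genes summed to 226, 340, 189 and 330 CPM in WT, YAPKO, TAZKO and DKO. Their part in the B cell ratios was not tested.

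One feature recurred in the TAZKO library. The chain genes and Cd74 were lower than in WT in B cells, macrophages, cDC1, cDC2 and pDCs, while Ciita was higher in each of them and in KCs. Its ratio was 0.85 [0.56, 1.13] in B cells, 0.65 [0.19, 1.10] in macrophages, 0.38 [0.10, 0.65] in cDC1, 0.78 [0.43, 1.13] in cDC2, 0.59 [0.01, 1.21] in pDCs and 0.82 in KCs. Ciita per 1000 chain transcripts was 26.9 in TAZKO B cells against 9.11 in WT, and 19.6 against 7.60 in cDC2. It was 16.3 against 6.46 in macrophages and 11.8 against 5.77 in KCs. In B cells it was also above WT in YAPKO (12.8) and DKO (15.7). DKO B cells likewise had a lower class II sum (-0.47) with higher Ciita (0.43). The median TAZKO ratio in B cells was 0.19 over all genes counted but -0.12 over genes with at least 1000 UMIs. It was 0.14 and -0.13 in macrophages and 0.11 and -0.07 in cDC1, whereas both medians were above 0 in KCs (0.24 and 0.17) and cDC2 (0.06 and 0.04), and in pDCs they were 0.03 and -0.01. TAZKO was also the library with the lowest median depth. In B cells Malat1, a nuclear transcript, stood at 25822, 26027, 34202 and 28708 CPM in WT, YAPKO, TAZKO and DKO. The part of library composition in the contrast between Ciita and its target genes was not tested.

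In ECs, fewer cells held a class II UMI than in HCs. After thinning to 1000 UMIs, 5.71% of ECs in WT, 7.40% in YAPKO, 5.16% in TAZKO and 8.77% in DKO held a class II UMI. The shares of HCs, a type that should lack the genes, were 11.6%, 10.3%, 9.70% and 10.96%. Whether the class II UMIs of ECs are background was not tested. By level ECs were above HCs, at 345, 224, 311 and 625 CPM against 56.1, 108, 170 and 136 CPM, and the top 5% of ECs held 92.0%, 81.2%, 95.0% and 92.8% of it. The class includes a cluster of 55 cells that carries EC markers but is led by Cxcl13, Cd207, Mmp12 and Trem2, genes that also lead KC clusters, and 94.5% of its cells had top doublet scores. Without the doublet-rich clusters the level was 115, 194, 118 and 191 CPM, and in ECs with no UMI of 21 marker genes of presenting cells 39.7, 77.9, 24.4 and 66.6 CPM, against 50.9, 56.9, 54.3 and 79.5 CPM in such HCs. Of these marker-free levels, YAPKO alone was higher in ECs than in HCs. The ratios to WT of -0.63, -0.15 and 0.86 changed sign with the alternatives in YAPKO and TAZKO and stayed above 0 in DKO, and no difference in expression is read from them. In ECs 7.03%, 11.1% and 8.62% of genes passed 2-fold in YAPKO, TAZKO and DKO, and of the members 0 of 8, 1 of 9 (H2-Ob) and 2 of 9 (H2-Aa and H2-Ob). Of the pathway genes in ECs, Cd274 (9.71 against 20.9 CPM) and Nlrc5 (5.83 against 13.8 CPM) were past 2-fold lower in DKO, and Marchf1, Cd86, Icosl and Cd83 passed 2-fold in some libraries on 36 UMIs or fewer.

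BECs, a deleted cell type, were few, with 54 cells in WT, 32 in YAPKO, 28 in TAZKO and 7 in DKO. Their class II sum stood at 2164, 8556, 1785 and 1166 CPM, and the thinned share of cells with a class II UMI was 16.7%, 62.5% [43.7–78.9], 25% and 57.1%. Leaving out every BEC with a UMI of the 21 marker genes of presenting cells kept 38, 23, 21 and 5 cells, with 55.2, 821, 166 and 1814 CPM. In the 23 YAPKO cells most of it was Cd74, 177 UMIs in 21 cells, beside 23 of H2-Ab1, 13 of H2-Eb1, 6 of H2-Aa and 1 of Ciita. In the 38 WT cells Cd74 gave 6 UMIs in 5 cells. Over all YAPKO BECs, neutrophil markers summed to 7094 CPM, against 11.4 CPM in WT and 0 in TAZKO and DKO, and their part in these values was not tested.

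In HSCs the sum was 600, 2521, 1383 and 3307 CPM, higher than in WT in each knock-out library. The top 5% of HSCs held 93.2%, 88.3%, 63.8% and 65.4% of it, and the marker genes of presenting cells summed to 826, 386, 1537 and 1100 CPM. In the 303, 111, 210 and 133 HSCs with no UMI of those markers, class II stood at 61.0, 55.5, 32.8 and 289 CPM, with 82.2% of the DKO value in the top 5% of those cells. The sum in T cells was 934, 736, 555 and 1323 CPM, in NK cells 215, 484, 60.7 and 250 CPM and in HCs 56.1, 108, 170 and 136 CPM. The thinned share of HSCs with a class II UMI was 6.65%, 13%, 18.98% and 25.3%, above the HC share in TAZKO and DKO, within counting error of it in YAPKO and below it in WT. In neutrophils TAZKO stood apart with 2384 CPM against 745 CPM in WT. There 5 of 8 neutrophil markers were detected and KC markers summed to 8358 CPM, against 1465 CPM in WT, so these cells go against their name in part.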

How the data were processed

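Single-cell suspensions of 4 livers, 1 per genotype, were run on the 10x 3′ platform. UMI counts per gene and barcode were deposited by the authors as raw matrices aligned to mm10, made with Cell Ranger 6.0.1 per the labels and 4.0.0 per the file headers. Barcodes with 500 to 6000 genes and at most 10% mitochondrial UMIs were kept. Counts were scaled to 10000 per cell and log transformed, and 2000 variable genes without H2- genes and members gave 20 components, corrected by library with the Harmony algorithm (written for this work) and clustered at resolution 0.4 (scanpy 1.11.5, igraph 0.11.9, Python 3.11.15). Myeloid clusters were clustered again at 0.8, a choice made after the first clusters were seen. Clusters were named from 14 marker lists. Scrublet's automatic threshold called almost no cell, so doublets were kept, and the top 8% of scores left out as an alternative. UMIs were summed per library and type. A gene was counted with at least 20 UMIs in 2 libraries together, and called at 2-fold, with no test, since each genotype has 1 library.

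The members, lists and comparisons were chosen with earlier results of these data known. Named genes were the 9 members, pathway genes past 2-fold and the 10 most similar patterns. Pathway examples with no such difference, the 21 marker genes used to set cells aside and the promoter letters were chosen after values were seen. No comparison columns were in the files. Scripts were tested on simulated counts.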

Additional observations from a re-analysis of the deposited data

Results flagged for a closer look

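Some cell types moved in opposite directions between the same pair of libraries. In the DKO library the class II sum was higher than in WT in KCs and macrophages and lower in B cells and pooled dendritic cells. The log2 ratios of KCs and B cells lay 1.00 apart, those of macrophages and B cells 0.96, those of KCs and dendritic cells 0.61 and those of macrophages and dendritic cells 0.57. For ECs, which were higher, the gap was 1.33 to B cells and 0.94 to dendritic cells. In the YAPKO library ECs were lower while KCs, macrophages, B cells and pooled dendritic cells were higher, with gaps of 0.81, 0.70, 0.67 and 0.65 to ECs. With 1 library per genotype the difference was not tested in any of these pairs. In ECs the share of cells with a class II UMI was below that of HCs, and the YAPKO gaps change sign with the processing. The pooled dendritic value of DKO (-0.08) joins opposite signs, 0.14 in cDC2 and -0.25 in cDC1. Over the alternatives tried, the DKO ratio ran from -0.09 to 0.5 in macrophages and from -0.55 to -0.06 in B cells.

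Barcodes with fewer than 500 genes, which enter no comparison, held class II transcripts at 778 CPM in YAPKO and 994 CPM in DKO, above the 268 CPM of WT, while TAZKO had 167 CPM. They numbered 6237 in WT, 941 in YAPKO, 5465 in TAZKO and 676 in DKO, so these sets are unlike. The part of that difference in the levels was not tested.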

How the results depend on the processing

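Values below are log2 ratios of the class II sum to WT, and the cause of each change was not tested. The TAZKO ratio stayed below 0 in KCs, macrophages, dendritic cells and B cells under every alternative that gave a value, and the DKO ratio in KCs stayed above 0. EC ratios in YAPKO and TAZKO changed sign, as did the macrophage ratio in DKO (0.49, but -0.09 under UMI limits) and ratios nearer to 0 elsewhere. For KCs in YAPKO (reported value 0.18) it was 0.13 under UMI limits, 0.13 at up to 20% mitochondrial UMIs, 0.04 without batch correction, 0.24 at resolution 0.8, -0.07 without high doublet scores, -0.07 with marker-chosen cells, 0.26 as a mean over cells and -0.06 without doublet-rich clusters. For KCs in TAZKO (reported value -0.19) it was -0.41 under UMI limits, -0.15 at up to 20% mitochondrial UMIs, -0.24 without batch correction, -0.12 at resolution 0.8, -0.12 without high doublet scores, -0.15 with marker-chosen cells, -0.23 scaled to other UMIs, -0.28 as a mean over cells and -0.31 without doublet-rich clusters. For KCs in DKO (reported value 0.53) it was 0.60 under UMI limits, 0.47 at up to 20% mitochondrial UMIs, 0.42 without batch correction, 0.51 at resolution 0.8, 0.47 without high doublet scores, 0.26 with marker-chosen cells, 0.54 scaled to other UMIs, 0.57 as a mean over cells and 0.37 without doublet-rich clusters. For macrophages in YAPKO (reported value 0.07) it was -0.05 under UMI limits, 0.22 without batch correction, 0.15 without high doublet scores, -0.05 with marker-chosen cells, 0.03 scaled to other UMIs and 0.02 as a mean over cells. For macrophages in TAZKO (reported value -0.73) it was -0.96 under UMI limits, -0.70 at up to 20% mitochondrial UMIs, -0.52 without batch correction, -0.64 without high doublet scores and -0.91 with marker-chosen cells. For macrophages in DKO (reported value 0.49) it was -0.09 under UMI limits, 0.13 without batch correction, 0.39 without high doublet scores, 0.20 with marker-chosen cells and 0.38 as a mean over cells. For dendritic cells in YAPKO (reported value 0.02) it was 0.05 at up to 20% mitochondrial UMIs, 0.05 without batch correction, 0.04 without high doublet scores, 0.20 with marker-chosen cells, 0.01 scaled to other UMIs and 0.08 as a mean over cells. For dendritic cells in TAZKO (reported value -0.66) it was -0.61 at up to 20% mitochondrial UMIs, -0.61 without batch correction, -0.71 without high doublet scores, -0.63 with marker-chosen cells, -0.64 scaled to other UMIs and -0.63 as a mean over cells. For dendritic cells in DKO (reported value -0.08) it was -0.00 at up to 20% mitochondrial UMIs, 0.00 without batch correction, -0.12 without high doublet scores, -0.05 scaled to other UMIs and -0.04 as a mean over cells. For B cells in YAPKO (reported value 0.04) it was 0.14 under UMI limits, 0.08 at up to 20% mitochondrial UMIs, 0.09 without batch correction, 0.12 at resolution 0.8, 0.12 without high doublet scores, 0.15 with marker-chosen cells, -0.02 scaled to other UMIs and 0.13 as a mean over cells. For B cells in TAZKO (reported value -0.84) it was -0.89 under UMI limits, -0.78 at up to 20% mitochondrial UMIs, -0.79 without batch correction, -0.72 without high doublet scores and -0.90 scaled to other UMIs. For B cells in DKO (reported value -0.47) it was -0.32 under UMI limits, -0.25 at up to 20% mitochondrial UMIs, -0.19 without batch correction, -0.30 at resolution 0.8, -0.06 without high doublet scores, -0.36 with marker-chosen cells, -0.55 scaled to other UMIs and -0.31 as a mean over cells. For ECs in YAPKO (reported value -0.63) it was -0.06 under UMI limits, 0.54 at up to 20% mitochondrial UMIs, 0.76 without batch correction, -0.01 at resolution 0.8, 0.65 without high doublet scores, 1.59 with marker-chosen cells, -0.01 as a mean over cells and 0.76 without doublet-rich clusters. For ECs in TAZKO (reported value -0.15) it was 0.32 under UMI limits, -0.03 at up to 20% mitochondrial UMIs, 0.34 without batch correction, -1.66 at resolution 0.8, 0.07 without high doublet scores, 0.04 with marker-chosen cells, -0.27 as a mean over cells and 0.04 without doublet-rich clusters. For ECs in DKO (reported value 0.86) it was 1.10 under UMI limits, 0.62 at up to 20% mitochondrial UMIs, 1.64 without batch correction, 0.48 at resolution 0.8, 1.72 without high doublet scores, 2.93 with marker-chosen cells and 0.74 without doublet-rich clusters. Dendritic cells gave no value under UMI limits, since no conventional dendritic cell cluster could be named. Leaving out doublet-rich clusters was chosen after seeing the data. Of 177 levels of single members by type and library, 141 moved beyond their counting interval without high doublet scores and 44 without doublet-rich clusters, and thinning to 1000 UMIs moved 38 of 56 shares of cells with a class II UMI. The 10 genes of most similar pattern were the same 10 with groups of at least 100 cells. No paired analysis was possible because each genotype has 1 library. Depth limits rare members: H2-Oa and H2-Ob in macrophages rest on as few as 4 and 6 UMIs.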
